A study of Homo sapiens with 105 samples.

Results

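A set of 10 genes of the endoplasmic reticulum (ER) stress response was followed in Caco-2, an epithelial cell line of human colon adenocarcinoma. The cells received bacterial extracellular vesicles (BEVs), RNA taken from such vesicles, or LPS. The 10 genes were listed by name with earlier results of these data known, by a rule that uses no measured value, and all 10 were among the 18775 genes tested out of 63241 in the count table. They comprised the transcription factor gene XBP1, the chaperone genes HSPA5, HSP90B1, CALR and CANX, the co-chaperone genes DNAJB9, DNAJC3 and SDF2L1, the disulfide isomerase gene PDIA4, and HERPUD1 of ER-associated degradation. Total RNA was sequenced for 28 groups, 7 of 3 and 21 of 4 libraries. The 39 libraries of lanes 2 to 4 of flow cell 1 were set aside in the main reading, which left 66 libraries, with 2 in 20 groups, 3 in 6 groups and 4 in 2 groups. The rule for this report asked for this, and whether the labels of the libraries set aside are right cannot be settled from the data.

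Proteus mirabilis supplied outer membrane vesicles (OMVs; PmOMV, 6000000000 particles). Enterococcus faecalis (EfMV, 7500000000 particles) and Lacticaseibacillus casei (LcMV, 150000000000 particles) supplied membrane vesicles (MVs). PBS was the control for vesicles. Vesicle RNA was transfected with Lipofectamine as 2 ng OMV-RNA of P. mirabilis (PmRNA), 5 ng MV-RNA of E. faecalis (EfRNA) or 100 ng MV-RNA of L. casei (LcRNA). Its controls were equal amounts of a non-targeting siRNA, named ANC2, ANC5 and ANC100. Cells also received P. mirabilis LPS, either in the medium (LPSinc, against PBS) or by transfection (LPStrans, against ANC2). The labels give its concentration as 0.2 and 1 ng per µl, whereas the methods of the study use the same figures per ml. Cells were lysed after 10 or 24 h, and those given L. casei material, ANC100 or PBS also after 48 h. Each group is a culture of 1 cell line, and the labels do not say whether replicates came from separate cultures.

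The ER folds secreted and membrane proteins, and unfolded protein sets off a response through the sensors IRE1, PERK and ATF6. IRE1 splices the XBP1 mRNA, and the protein made from the spliced form, together with cleaved ATF6, raises transcription of ER chaperones and of genes for the removal of misfolded protein. In the intestinal epithelium XBP1 is known for its role in secretory cells and in the tolerance of inflammatory stimuli. A count per gene adds the spliced and the unspliced form of XBP1, so the level of XBP1 given here is no measure of splicing.

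The promoters of several of these genes share short elements that are known to bind ATF6 and XBP1, and the matches are shown because this group of genes is known for its control through them. RefSeq windows (GRCh38.p14) of 250 bases before to 50 bases after each start site were found for all 10 symbols. The ER stress response element, searched on both strands as CCAAT and CCACG with 9 bases between them, was present in 27 of 35116 windows (0.0769%). Members with it were XBP1, HSPA5, HSP90B1, CALR and CANX. The shorter ER stress response element II, searched as ATTGG and CCACG with 1 base between them, was found in 19 windows (0.0541%), among them those of SDF2L1 and HERPUD1. Another element, TGACGTGG, was in 256 windows (0.729%) and in none of the members, and DNAJB9, DNAJC3 and PDIA4 had no match to any of these letters. A match describes the letters only. In the following runs, read 5′ to 3′ along the gene, the capitals mark the fixed bases of the element.
XBP1, chr22:28800603-28800621, minus strand: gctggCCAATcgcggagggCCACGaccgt
HSPA5, chr9:125241391-125241409, minus strand: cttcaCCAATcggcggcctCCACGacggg
HSP90B1, chr12:103930216-103930234, plus strand: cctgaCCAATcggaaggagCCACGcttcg
HSP90B1, chr12:103930321-103930339, element in reverse: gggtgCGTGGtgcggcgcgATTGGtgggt
CALR, chr19:12938384-12938402, element in reverse: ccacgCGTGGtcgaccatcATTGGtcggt
CANX, chr5:179698778-179698796, plus strand: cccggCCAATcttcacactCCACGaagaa
HERPUD1, chr16:56932025-56932035, plus strand: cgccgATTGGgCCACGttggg
SDF2L1, chr22:21642114-21642124, element in reverse: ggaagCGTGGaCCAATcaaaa
The element began 52 bases before the start site of XBP1 and 66 bases before that of HSPA5.

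Levels are given as CPM, counts scaled to a library of 1000000 counts after TMM scaling, and only levels per kilobase of annotated exon are compared between genes. Per kilobase, the median over the 66 libraries was highest for CALR, the calcium-binding lectin chaperone, at 329 CPM. It was 117 for PDIA4, 85.0 for HSPA5 (BiP, the Hsp70 of the ER lumen), 70.2 for CANX (calnexin, the membrane-bound lectin chaperone), 62.0 for HSP90B1 (the Hsp90 of the ER) and 60.2 for XBP1. The co-chaperones SDF2L1 (24.3), DNAJC3 (21.1) and DNAJB9 (5.09) were lower, as was HERPUD1 (15.4). Exon lengths join all annotated transcripts, at 6530 bases for HSPA5, 13092 for HSP90B1 and 13764 for CANX, against 3298 for PDIA4 and 2802 for CALR. A joined length can exceed that of any single transcript, so the order of the genes depends on it. DNAJB9 was the least precise member, with 3 to 127 counts per library and a median of 71. Its counts, and those of SDF2L1 (16 to 274), limited what could be detected for these genes. The exons of HSP90B1 share 805 bases with UQCC6 on the opposite strand, those of CALR 270 bases with a non-coding gene, and those of CANX 638 bases with CBY3. No strand setting is named for the counting, so reads of these stretches cannot be assigned with certainty.

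Total counts of the 66 libraries ran from 632659 to 8558755 with a median of 5563438, and 5 libraries held fewer than 1500000. The epithelial markers EPCAM, CDH1, KRT8, KRT18, VIL1 and CDX2 were present in all 66 libraries, and KRT20 had a median of 2.13 CPM. Of the secretory markers, LYZ (median 78.0 CPM) and TFF3 (34.4) had counts in all 66 libraries, and the Paneth cell gene DEFA5 was at 0 in each. MUC2 (median 0.149 CPM), SPDEF (0.193) and CHGA (0.694) were too low to be among the genes tested. Of the immune markers, CD3E and CD68 had counts in 65 libraries, at medians of 1.73 and 1.42 CPM, and PTPRC and JCHAIN in 2. Of the stromal and endothelial markers, COL1A1 (median 33.9 CPM) and PECAM1 (4.94) had counts in all 66, and COL1A2 in 2. In the libraries set aside, the labelled time and the level of HSPA5 went together less closely. HSPA5 had 357 to 620 CPM in the 13 of them labelled 10 h, 336 to 658 CPM in the 18 labelled 24 h and 443 to 653 CPM in the 8 labelled 48 h. In the 66 libraries it had 570 to 706 CPM at 10 h (n = 32), 421 to 595 CPM at 24 h (n = 26) and 320 to 456 CPM at 48 h (n = 8).

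The first question was whether vesicles changed these genes relative to PBS. One call was made in 180 tests of a member over the 18 comparisons of a treatment with its control, where the share of all genes called was 0.22%. It was XBP1 after 10 h with OMVs, a fall already known from earlier results of these data, so the test is no independent support for it. XBP1 had 131, 129 and 137 CPM in the 3 OMV libraries, against 174 and 171 CPM in the PBS libraries. The 3 values lay below those of all 63 other libraries, of which the lowest at 10 h was 150 CPM. How many of all genes separate in this way was not counted, so this rank is a description only. XBP1 fell by 24.6% (log2 fold change −0.41 ± 0.08 SE, 95% interval −0.56 to −0.25, edgeR adjusted p = 0.000865). Of all genes 1.06% were called in this comparison, 0.639% as lower. In bulk RNA, less XBP1 mRNA per cell and fewer cells that make it cannot be told apart.

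**Figure D1:**
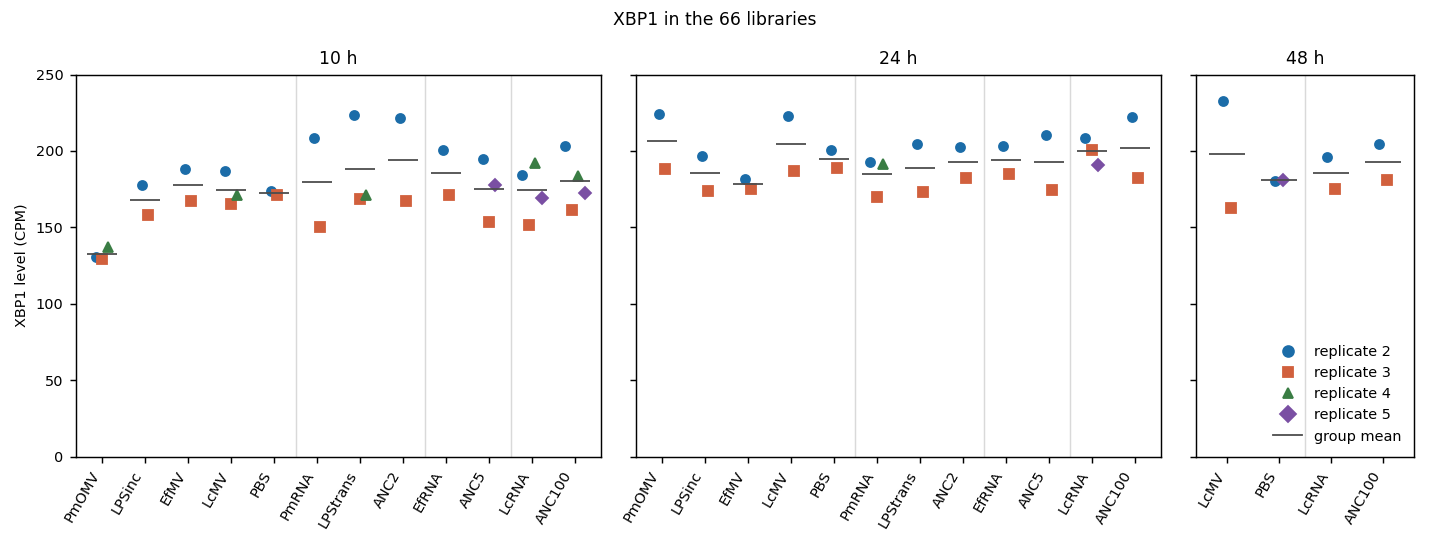
XBP1 level in CPM (linear axis from 0) in each of the 66 libraries at 10, 24 and 48 h, with each set of treatments left of its control (PBS, ANC2, ANC5 or ANC100); symbols give the replicate number and lines the group mean. The 3 OMV libraries at 10 h lie at 129 to 137 CPM, and all other libraries at 10 h lie at 150 to 224 CPM.

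Without OMV replicate 2 the log2 fold change was −0.33 with an adjusted p of 0.0732, and without PBS replicate 3 it was −0.28 with an adjusted p of 0.434. Where a group of 2 libraries loses 1, the library that remains is assumed to vary like the other groups. It was also lost without the replicate number in the fit (−0.38, adjusted p = 0.978). With the libraries set aside added back the difference was −0.35, at an adjusted p of 1.00 without the replicate number and of 0.346 with it. The 1 OMV library set aside at 10 h had 205 CPM, against 192 and 227 CPM in the PBS libraries set aside. The 3 OMV libraries held 5594770 to 8387329 counts, against 2476570 and 7144185 in the PBS libraries. Summed epithelial markers had 7322 to 8243 CPM with OMVs, against 6870 to 7486 CPM with PBS. Summed secretory markers had 36.5 to 211 CPM with OMVs, against 31.8 to 191 CPM with PBS, which overlapped. Summed stromal or endothelial markers had 20.6 to 22.0 CPM with OMVs, against 27.7 to 32.7 CPM with PBS, and most of this sum was COL1A1, while COL1A2 and DCN were at 0 in most libraries. The sum was also lower than with LPS in the medium (32.6 to 33.2 CPM), MVs of E. faecalis (29.0 to 32.2 CPM) and MVs of L. casei (26.3 to 31.6 CPM). Summed immune markers had 1.98 to 2.99 CPM with OMVs, against 3.82 to 4.17 CPM with PBS. They overlapped with those of LPS in the medium (2.90 to 4.15 CPM), MVs of E. faecalis (2.41 to 3.32 CPM) and MVs of L. casei (2.53 to 3.93 CPM). The part of these differences in the XBP1 result was not tested.

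The same 3 OMV libraries were set against 3 other groups of the same time. The first was LPS in the medium, whose dose cannot be matched to the OMVs, since labels and methods differ in its unit. Against it, XBP1 had 131, 129 and 137 CPM with OMVs and 178 and 158 CPM with LPS (−0.35 ± 0.08 SE, adjusted p = 0.00287, 3.18% of all genes called). This was 1 call in 40 tests of a member against LPS, where the share of all genes called was 0.834%, and it was lost without OMV replicate 2 (−0.28, adjusted p = 0.0990) or LPS replicate 3 (−0.32, adjusted p = 0.104). Against MVs of L. casei, the difference was −0.39 ± 0.07 (adjusted p = 0.000162, 0.506% of all genes called), with 187, 165 and 171 CPM in the LcMV libraries, and no library left out ended the call. Against MVs of E. faecalis it was −0.43 ± 0.08 (adjusted p = 0.000402, 0.852% called), with 188 and 167 CPM in the EfMV libraries. This call was lost without EfMV replicate 3 (−0.41, adjusted p = 0.0630). These were the only 2 calls in 60 tests of a member between vesicles of different species, where 0.249% of all genes were called. None of the 3 calls held without the replicate number in the fit or with the libraries set aside added back. The OMV libraries are shared by all of these comparisons, which are therefore not independent.

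At 24 h, XBP1 had 224 and 188 CPM in OMV libraries and 201 and 189 CPM in PBS libraries, so the groups overlapped. The log2 fold change was 0.08 ± 0.08 SE (95% interval −0.08 to 0.24), in a comparison in which 0.112% of all genes were called. The OMV effect at 24 h minus that at 10 h was 0.49 ± 0.12 SE and did not pass (adjusted p = 0.119). It passed with the replicate number fitted within each time (0.49, adjusted p = 0.00936) and with flow cell and lane as covariates (0.49, adjusted p = 0.0494). With OMV-RNA at 10 h, XBP1 had 209 and 150 CPM, against 222 and 167 CPM with ANC2. The OMV effect minus the OMV-RNA effect at 10 h was −0.35 ± 0.12 SE (adjusted p = 0.389).

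The chaperones did not follow XBP1 past the test. HSPA5 had 682, 706 and 649 CPM in OMV libraries at 10 h and 599 and 666 CPM in PBS libraries, a log2 fold change of 0.10 ± 0.09 SE (95% interval −0.06 to 0.27). HSP90B1 (0.04), CALR (−0.01), CANX (0.01), PDIA4 (−0.05) and DNAJC3 (0.04) differed by little in the same comparison. The intervals of 6 of the 9 other members lay within 0.3 of 0 on the log2 scale, and those of 8 within 0.5. HERPUD1, an ER membrane protein of the degradation machinery, was at −0.14 ± 0.13 against PBS and at −0.30 ± 0.12 against LPS (adjusted p = 0.194). Against LPS it passed with the replicate number fitted within each time (−0.31, adjusted p = 0.00363) and without the filter on low counts (−0.30, adjusted p = 0.0484). The median log2 fold change of the 10 members against PBS was 0.02, and that of all genes was 0.00.

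Among other genes of the pathway, DNAJC10, an ER reductase with a J domain, was higher with OMVs at 10 h than with PBS (0.29 ± 0.08 SE, adjusted p = 0.0325). It was the only gene called among 16 other ER chaperones and foldases, 16 genes of ER-associated degradation, 18 of ER import and export, 7 of stress sensors and their proteases, 8 of the PERK and ATF4 arm, and 10 cytosolic and mitochondrial chaperones. Against LPS, DNAJC10 was again higher (0.27 ± 0.07, adjusted p = 0.0178), and OS9, a lectin that hands glycoproteins to degradation, was lower (−0.23 ± 0.07, adjusted p = 0.0482). No sensor gene passed in either comparison. Of all genes, 1.06% were called against PBS and 3.18% against LPS, and the few calls in these lists are to be read against those shares.

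**Figure D2:**
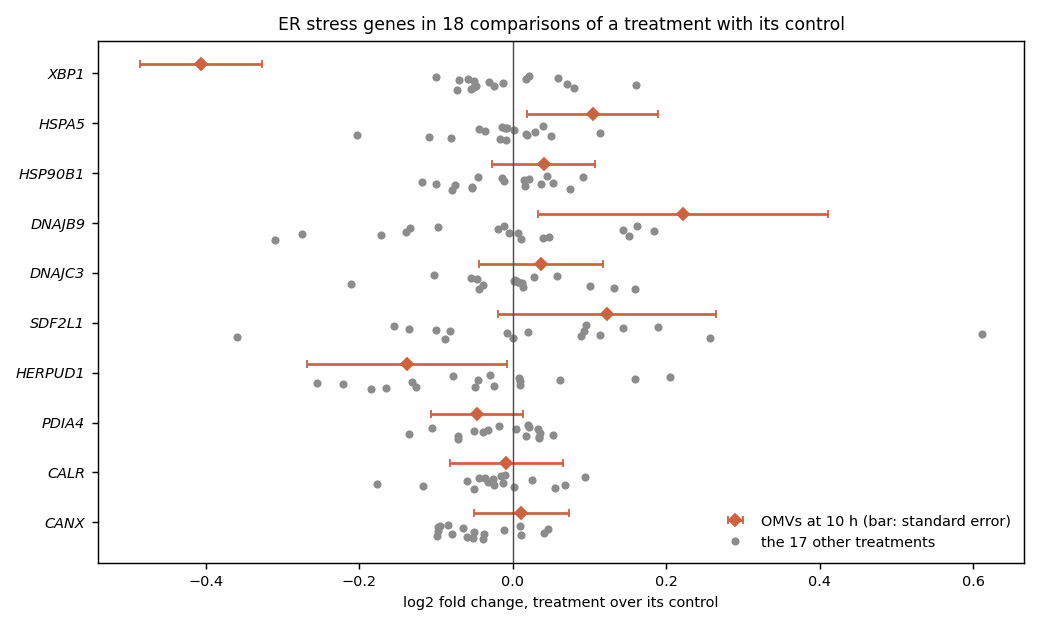
Log2 fold change of each of the 10 genes in the 18 comparisons of a treatment with its control, on the horizontal axis; diamonds are OMVs against PBS at 10 h with their standard error, and dots are the 17 other comparisons. XBP1 with OMVs at 10 h lies at −0.41, away from its 17 other values, while the widest spreads belong to SDF2L1 and DNAJB9, whose counts are low.

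In the other 17 comparisons with a control, edgeR, limma voom and DESeq2 called no member. Over all 180 tests, 168 log2 fold changes lay within 0.2 of 0 and the median size was 0.05. An unadjusted p under 0.05 was found in 6 of them (3.33%), where the share of all genes was 5.19%. Those 6 were XBP1 with OMVs at 10 h and 5 members with MVs of L. casei at 48 h. LPS in the medium, transfected LPS, OMV-RNA and MV-RNA of both species, and MVs of E. faecalis each gave 0 calls, at 10 and at 24 h. With OMV-RNA at 24 h, 10 of 10 members had values below 0 relative to ANC2 (median −0.07, lowest −0.31), and none of them had an unadjusted p under 0.05. In most of these comparisons edgeR also called no gene outside the list. A miss does not show equal levels, since in every comparison the 95% intervals of at least 2 members reached beyond 0.3 from 0 on the log2 scale.

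MVs of L. casei at 48 h gave the largest single value among the 18 comparisons with a control. SDF2L1, a co-chaperone that works with HSPA5, had 19.7 and 16.0 CPM in LcMV libraries and 11.1 and 13.2 CPM in PBS libraries. Its log2 fold change was 0.61 ± 0.20 SE (95% interval 0.23 to 1.00) and missed the threshold (adjusted p = 0.0658). Here 5 of 10 members had an unadjusted p under 0.05, where 16.3% of all genes did, and 2.75% of all genes passed the test. The other 4 did not pass either, at −0.20 for HSPA5, −0.21 for DNAJC3, −0.14 for PDIA4 and −0.18 for CALR. In the PERK and ATF4 arm, 3 of 8 genes were higher in this comparison. They were ATF4, the central factor of this arm (0.53), PPP1R15A, which restores translation (0.62), and TRIB3, its target (0.71), all named after their values were seen. PBS at 48 h rested on replicates 2 and 5, and LcMV on replicates 2 and 3, so only replicate 2 is shared. This limit applies to ATF4, PPP1R15A and TRIB3 too, whose levels within replicate 2 were not compared. In that replicate HSPA5 had 434 CPM with LcMV and 436 CPM with PBS, and CALR had 730 CPM with LcMV and 713 CPM with PBS. DNAJC3 had 117 CPM with LcMV and 132 CPM with PBS, and PDIA4 had 315 CPM with LcMV and 329 CPM with PBS. Replicate 3 was lower than replicate 2 over the groups at 48 h, by −0.31 for HSPA5 and −0.27 for CALR, and a block that is constant over time does not remove such a difference, so for both genes treatment and replicate number cannot be told apart. With MV-RNA at 48 h, SDF2L1 was at −0.36. The LcMV effect on SDF2L1 minus the LcRNA effect was 0.97 ± 0.27 SE (adjusted p = 0.149), and passed with the replicate number fitted within each time (1.11, adjusted p = 0.0495). Mean SDF2L1 at 48 h was 17.9 CPM with LcMV and 12.2 CPM with PBS, and 12.7 CPM with LcRNA and 16.1 CPM with ANC100. The 2 controls thus differed, with PBS the lower, and the difference of effects includes this difference between controls.

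Transfection with siRNA was compared with PBS in 7 comparisons and gave 0 calls in 70 tests of a member with edgeR, limma voom or DESeq2, where edgeR called 0.0403% of all genes and 5.71% of the member tests had an unadjusted p under 0.05, as had 6.41% of those of all genes. ANC100 at 48 h had the highest value, 0.45 ± 0.20 SE for SDF2L1 (adjusted p = 0.370). It rested on replicates 2 and 3 of ANC100 and replicates 2 and 5 of PBS, so only replicate 2 is shared. The 17 tests of a difference between effects (vesicles and their RNA, or 2 times) gave 0 calls in 170 tests of a member with the same 3 tools, where edgeR called 0.0222% of all genes and 2.35% of the member tests had an unadjusted p under 0.05, as had 4.75% of those of all genes.

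Levels were also compared between times in culture. Over the control groups, 7 of 10 members passed between 24 and 10 h, where 34.3% of all genes did, and 5 of 10 passed between 48 and 24 h, where 29.2% of all genes did. HSPA5 had 457 to 540 CPM with a median of 488 CPM in the 8 control libraries at 24 h, against 599 to 692 CPM with a median of 636 CPM in the 11 control libraries at 10 h. The groups did not overlap, and the log2 fold change was −0.36 ± 0.04 SE (adjusted p = 2.77e-09). At 48 h it had 389 to 456 CPM in 4 control libraries (−0.19 ± 0.07 against 24 h, adjusted p = 0.0279), a call lost in 7 of 11 alternatives, among them no replicate number in the fit (adjusted p = 0.142), RLE scaling (0.0893) and DESeq2 (0.115). Among libraries of the same treatment and replicate number, HSPA5 was lower at 24 h than at 10 h in 25 of 25 pairs, and lower at 48 h than at 24 h in 7 of 7 pairs. Here and for the other members, the pairs come mostly from replicates 2 and 3. Libraries that share a number deviated together, so the pairs are not independent.

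CALR and CANX, the lectin chaperones of glycoproteins, were lower at 24 h by −0.13 ± 0.04 and −0.12 ± 0.03, and each in 23 of 25 pairs. CALR was lower again at 48 h (−0.25 ± 0.06, adjusted p = 0.000398), and CANX had −0.10 (adjusted p = 0.105). HSP90B1 had small differences of −0.09 (adjusted p = 0.0437) and −0.14 (adjusted p = 0.0278). The call at 24 h held in 3 of 11 alternatives and that at 48 h in 6 of 11, and both were lost with RLE scaling and with DESeq2. PDIA4, which forms and rearranges disulfide bonds, differed by −0.02 at 24 h and was lower at 48 h (−0.19 ± 0.05, adjusted p = 0.000781). SDF2L1 had 21.9 to 27.2 CPM in the controls at 24 h, against 19.2 to 33.1 CPM at 10 h, which overlapped, and was lower by −0.32 ± 0.08 (adjusted p = 0.000642). At 48 h it had a median of 14.3 CPM over 4 libraries, each below every control at 24 h (−0.72 ± 0.13, adjusted p = 3.70e-06).

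The other direction was seen for HERPUD1 and XBP1. HERPUD1 had 82.3 to 96.7 CPM in the controls at 24 h, against 58.1 to 87.7 CPM at 10 h, and was higher by 0.39 ± 0.07 (adjusted p = 6.62e-06) and in 24 of 25 pairs. XBP1 had 175 to 222 CPM at 24 h, against 154 to 222 CPM at 10 h, and the groups overlapped (0.11 ± 0.04, adjusted p = 0.0316). Neither passed between 48 and 24 h. DNAJB9, a co-chaperone that restrains IRE1, and DNAJC3, which acts in the folding cycle of HSPA5, did not pass at either step, at 0.02 ± 0.10 and −0.03 ± 0.04 for 24 h. The members' median was −0.06 at 24 h and −0.13 at 48 h, and that of all genes was within 0.01 of 0 at both steps.

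**Figure D3:**
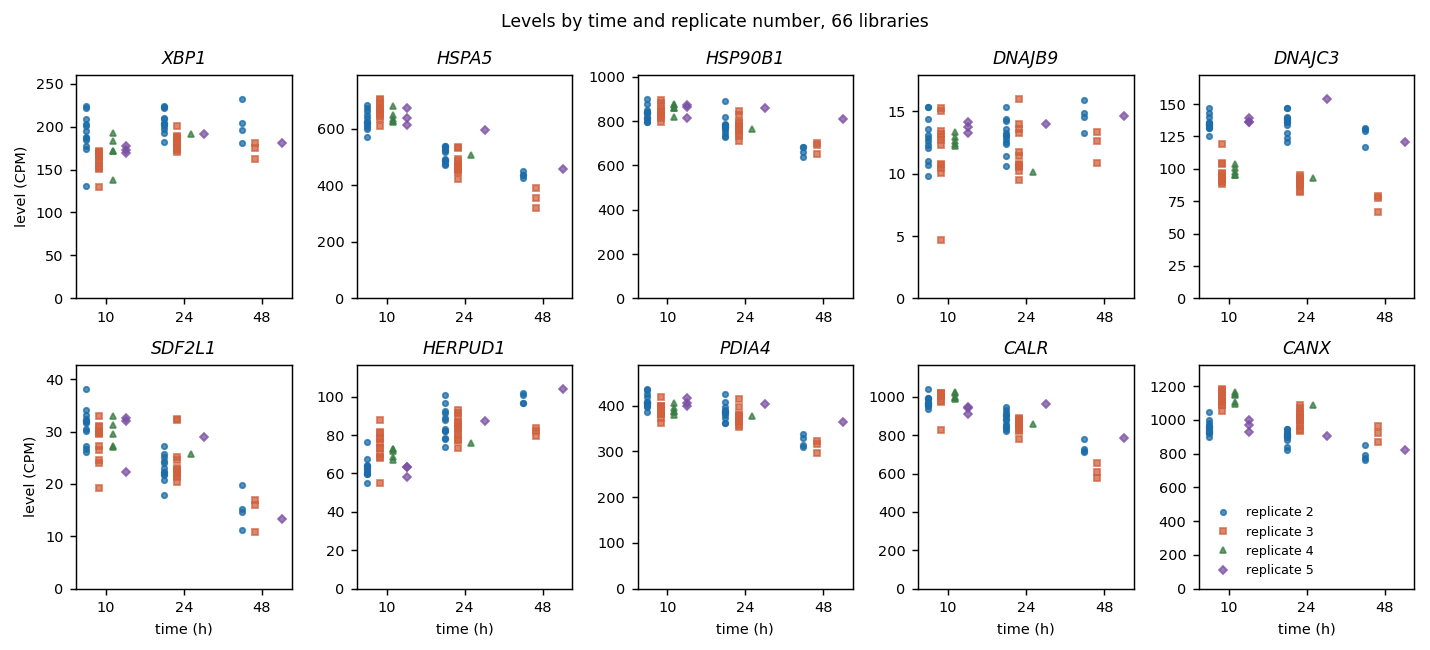
Level in CPM (linear axes from 0) of each of the 10 genes at 10, 24 and 48 h in the 66 libraries, with symbols for the replicate number. HSPA5, SDF2L1 and CALR decline with time, HERPUD1 is higher at 24 h than at 10 h, and DNAJC3 divides by replicate number at each time.

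Leaving out 1 library at a time ended none of the calls of HSPA5, SDF2L1, HERPUD1, CALR and CANX for 24 h against 10 h (19 libraries in turn), nor those of SDF2L1, PDIA4 and CALR for 48 h against 24 h (8 in turn). The call of XBP1 was lost without any 1 of 6 of the 19 libraries, and that of HSP90B1 without any 1 of 12. At 48 h the calls of HSPA5 and HSP90B1 were lost without any 1 of 5 and 6 of the 8 libraries. With the libraries set aside added back the calls over both steps numbered 0 without the replicate number and 1 with it, against 12 in the main reading.

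Other genes of the pathway are given as counts, to be read against the 34.3% of all genes called between 24 and 10 h and the 29.2% between 48 and 24 h. Between 24 and 10 h, 9 of 16 other ER chaperones and foldases were lower and 1 was higher. The lowest were DNAJB11, a J-domain partner of HSPA5 (−0.49), and CRELD2 (−0.46) and MANF (−0.45), a pair of secreted ER stress proteins. ERO1B, an oxidase, was the one that was higher (0.68). Among 18 genes of import and export, 7 were lower, with SEC23B (−0.36), SRPRB (−0.31) and SSR3 (−0.23) lowest, and 3 were higher, with SEC24D (0.35) highest. Of 16 genes of ER-associated degradation, 5 were higher and 3 lower. EDEM1 (0.29), HERPUD2 (0.28) and OS9 (0.26) were highest. None of 8 genes of the PERK and ATF4 arm passed at either step, while 10 of 10 cytosolic and mitochondrial chaperones were lower at 24 h, with a median of −0.78 and HSPA1A lowest (−1.82). Among the 7 sensors and proteases only ATF6B passed at 24 h (0.25), and only ERN1, which encodes IRE1, at 48 h (0.29). At 48 h, 7 of 16 other ER chaperones were lower (TXNDC5 at −0.61, CRELD2 at −0.52 and HYOU1 at −0.47), as were 9 of 18 genes of import and export.

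Replicate number separated DNAJC3, XBP1 and CANX. With 62.2% of all genes called between replicates 3 and 2, 4 of 10 members passed. Libraries that share a number deviated together, so the groups are not independent repeats of these differences. The edgeR p-values cover only variation among these libraries, which may be technical. DNAJC3 had 88.3 to 119 CPM in the 12 libraries of replicate 3 at 10 h, against 125 to 147 CPM in the 12 of replicate 2, and the groups did not overlap. It was lower in replicate 3 in 27 of 27 groups that had both (−0.57 ± 0.02 SE, adjusted p = 4.62e-36). At 10 h, replicate 4 had 98.5 ± 3.59 CPM (SD, n = 5), within the range of replicate 3, and replicate 5 had 137 ± 1.68 CPM (SD, n = 3), within that of replicate 2. XBP1 was lower in replicate 3 in 27 of 27 groups (−0.22 ± 0.02, adjusted p = 9.57e-14), and CANX was higher in 27 of 27 (0.20 ± 0.02, adjusted p = 9.05e-17). PDIA4 differed by −0.06 ± 0.02 (adjusted p = 0.00330). The OMV call on XBP1 was thus read within replicate numbers. In OMV replicate 2 XBP1 had 131 CPM, against 174 to 224 CPM in the 11 other libraries of that number at 10 h. OMV replicate 3 had 129 CPM, against 150 to 171 CPM in 11, and OMV replicate 4 had 137 CPM, against 171 to 192 CPM in 4.

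For some genes the replicate difference itself varied with time. HSPA5 in replicate 3 against 2 was at 0.08 ± 0.03 at 10 h, −0.09 ± 0.03 at 24 h and −0.31 ± 0.05 at 48 h, and HERPUD1 at 0.23 ± 0.04, −0.03 ± 0.04 and −0.29 ± 0.07. CALR was at 0.03, −0.04 and −0.27 at the same times. The difference between times was not tested. Within a time, 6 of 10 members passed at 10 h, where 50% of all genes did, 4 of 10 at 24 h, where 52.9% did, and 6 of 10 at 48 h, where 36.5% did, and this split by time was chosen once results were known.

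**Figure D4:**
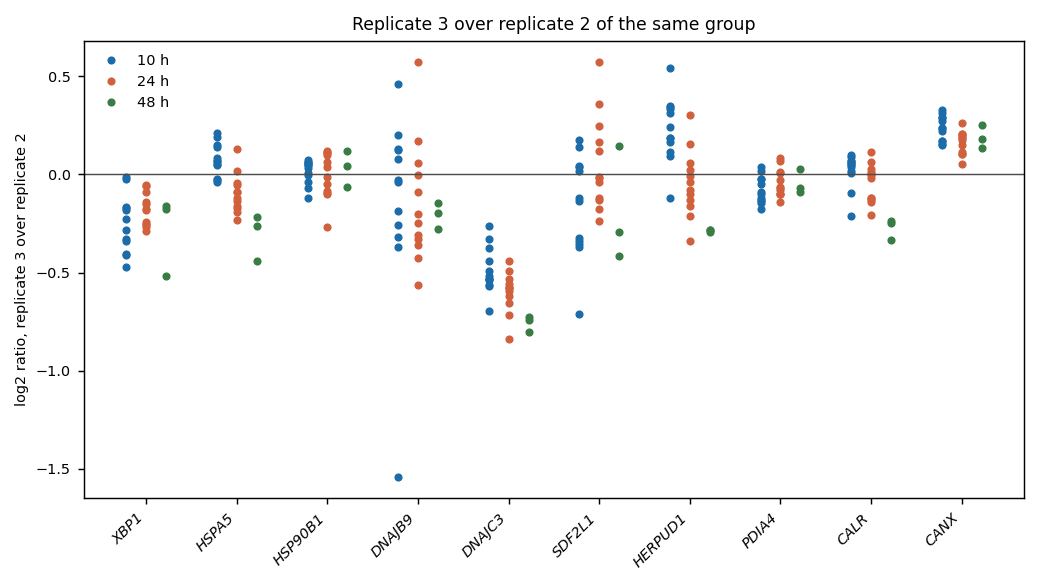
Log2 ratio of replicate 3 over replicate 2 within each of 27 groups for the 10 genes, coloured by time, with 0 as a line. DNAJC3 and XBP1 lie below 0 in every group and CANX above 0 in every group, while HSPA5 and HERPUD1 lie lower at 48 h than at 10 h.

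The variance of log2 CPM over the 66 libraries was divided among time, replicate number within time, treatment within these classes, and the rest, as a description. Time took 84.9% for HSPA5, 80.2% for CALR and 71.1% for SDF2L1, against a median of 16.9% over all genes. Replicate number took 91.3% for DNAJC3 and 45.6% for CANX, against 19.4% over all genes. Treatment took 35.4% for XBP1, the highest of the members, against 23.7% over all genes. This share includes the OMV fall that was known beforehand. No share was adjusted for the number of coefficients, which was larger for treatment than for time, so shares of different steps are not comparable. For DNAJB9 the rest was 52.2%.

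Genes with a pattern like that of XBP1 were ranked by Pearson's r of log2 CPM over 63 libraries, after the mean of each class of time and replicate number had been subtracted. The libraries share these classes and the OMV treatment, so the values are a description. The 5 nearest to XBP1 were SOX4 (0.76), KLF5 (0.70), KLF13 (0.70), IHH (0.69) and DNAJC22 (0.66). No other member was near it, since the highest r was 0.14 for PDIA4 and SDF2L1, and that of HSPA5 was −0.26. The 5 nearest to HSPA5 were XPO5 (0.69), HYOU1, a large Hsp70-like chaperone of the ER (0.68), HEATR1 (0.64), LRRC59 (0.60) and TSR1 (0.60), and its nearest member was CANX (0.35). Without libraries under 1500000 counts, which left 58, CALR was its nearest member (0.46, with CANX at 0.42), HYOU1 ranked first for HSPA5 and SOX4 for XBP1, and LRRC59, TSR1 and KLF5 were no longer among the 5 nearest. This choice was made with the values in view.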

How the data were processed

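Paired-end sequencing was done on total RNA of Caco-2 cells from which ribosomal RNA had been removed. Per the labels, the authors aligned reads to GRCh38 with STAR and counted them with featureCounts, and the deposited values are raw counts per gene, not normalised. Groups came from the labels. Genes were kept by filterByExpr, which left 18775 of 46395 genes with a count, and library sizes were scaled by TMM. One edgeR fit (R 4.3.3, edgeR 4.0.16, glmQLFit with the robust option, glmQLFTest) held a coefficient per group and the replicate number as a block. Tests were two-sided, with Benjamini-Hochberg adjustment over all genes within a comparison and a threshold of 0.05. The script was tested on simulated data. All genes of the list are described, and from other lists up to 3 of the highest and 3 of the lowest genes past the test where a member passed. The 3 genes named for MVs of L. casei at 48 h lie outside this rule, since no member passed there.

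The members, lists and comparisons were chosen with earlier results of these data known, among them the fall of XBP1 with OMVs at 10 h. The pairing of replicate numbers comes from the data: libraries that share a number deviated together from their groups, with a correlation above 0.1 in every pair of all 33 comparisons with at least 2 pairs (lowest 0.22). Where a comparison had only 2 pairs, both gave the same correlation by construction, and only 2 comparisons had 3 or more pairs. Many of the comparisons share libraries, so they are not independent. The p-values thus cover only variation among these libraries, which may be technical. Alternatives were no block, a block within each time, all libraries, replicates 2 and 3 only, flow cell and lane as covariates, deeper libraries only, RLE scaling, no filter, no robust option, limma voom (3.58.1), DESeq2 (1.42.0), and libraries left out in turn. Gene positions are from GENCODE and promoter windows from RefSeq (GRCh38.p14).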

Additional observations from a re-analysis of the deposited data

How the results depend on the processing

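The number of members past the test over comparisons with a control was 1, and 0 with all libraries (with or without the replicate number) and with no replicate block; with libraries left out in turn it was 0 to 1. Against LPS it was 1, with 0 under the same 3 settings, 2 with the replicate block within each time and 2 with no filter on low counts, and 0 to 1 with libraries left out. Between species it was 2, with 0 under the same 3 settings and 1 to 2 with libraries left out. For differences of effects it was 0, with 2 under the replicate block within each time and 1 with flow cell and lane as covariates, and 0 to 0 with libraries left out. Between times in controls it was 12, with 0 for all libraries without and 1 with the replicate block, 8 with no replicate block, 9 with RLE scaling and with DESeq2, and 9 to 12 with libraries left out. For siRNA against PBS it was 0 in each, and for replicates 3 against 2 it was 4, with 3 for all libraries with the replicate block (PDIA4 lost) and 5 with flow cell and lane as covariates (HERPUD1 gained), and 4 to 5 with libraries left out. Over the 20 calls named, 216 values under 12 kinds of alternative gave 164 that stayed past the test, 52 that did not and 0 of the opposite sign; 286 values with 1 library left out gave 252, 34 and 0. The all-gene count for OMVs against PBS at 10 h was 199, and ranged with the alternative: 3 and 6 with all libraries, 18 without the replicate block, 682 with the block within each time and 349 with flow cell and lane. Leaving libraries out in turn was run for the OMV groups at 10 h with the groups they were set against, and for the control groups, and not for the other comparisons. The cause of these changes was not tested.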
